A study of Rattus norvegicus with 6 samples.

Results

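Neurexins, neuroligins and leucine-rich repeat transmembrane neuronal proteins (LRRTMs) are cell adhesion proteins of the synapse, and their transcripts were described here in cultured rat hippocampal neurons in which Cyclin Y (CCNY) was raised or lowered. The 9 genes were taken by symbol and family from the 17066 genes of the deposited table: 2 neurexins (Nrxn2 and Nrxn3), 3 neuroligins (Nlgn1, Nlgn2 and Nlgn3) and 4 LRRTM genes (Lrrtm1, which the table spells LRRTM1, Lrrtm2, Lrrtm3 and Lrrtm4). Primary neurons came from Sprague-Dawley embryos at embryonic day 18, were given lentivirus on day 5 or 6 in vitro and were lysed for RNA on day 14. The viruses, made in the FUGW vector, carried EGFP alone (EGFP, the control), CCNY-WT-EGFP (overexpression) or CCNY-shRNA-EGFP (knockdown), so all 3 conditions received virus and EGFP. Each condition has 2 libraries, named replicate 1 and replicate 2. The labels name 1 shRNA construct and no non-targeting shRNA in the control, and do not say whether the libraries of a condition came from separate cultures, so p-values measure the spread between these libraries.

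Neurexins sit mainly on the presynaptic membrane and reach across the cleft to bind neuroligins and LRRTMs on the postsynaptic side. Neuroligin 1 is found mainly at excitatory synapses, neuroligin 2 mainly at inhibitory synapses and neuroligin 3 at both, while LRRTM proteins act at excitatory synapses. In hippocampal neurons these partners help to recruit the release machinery on one side and the receptors and scaffolds on the other.

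The values are FPKM, sequenced fragments scaled both to transcript length and to library size, so that levels can be compared between genes. Ccny, the targeted gene, had an FPKM of 43.1 and 42.3 with EGFP, 108 and 109 with CCNY-WT and 5.98 and 6.19 with CCNY-shRNA, in the direction of each label. The table holds no read counts. Depth relative to EGFP replicate 1, read from the steps of weakly expressed genes, ranged from 0.818 to 1.33. Of the marker genes listed for the check of cell type, all 9 neuronal markers had an FPKM of at least 1 in all 6 libraries and summed to between 4620 and 4730. None of 8 microglial markers did, with Aif1 and Cx3cr1 listed at 0 throughout, and Cldn5 and Cdh5 of the vascular list and Sox10 of the oligodendrocyte list were also listed at 0. A value of 0 in all libraries does not tell an absent transcript from a gene that was not measured. The 7 astrocyte markers found summed to 535 to 574 with EGFP, 563 to 568 with CCNY-WT and 468 to 540 with CCNY-shRNA. The 8 oligodendrocyte markers summed to at most 47.6, the 7 vascular markers to at most 74.8 and the 4 markers of dividing cells found to at most 4.14.

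In the EGFP control the 9 transcripts spanned a 28.9-fold range. Nrxn2 was the most abundant, with a mean FPKM of 166 ± 3.58 (SD, n = 2), above 93.7% of the genes tested. It was followed by Nlgn2 (134 ± 7.75), Nlgn3 (97.1 ± 2.14), Lrrtm1 (57.0 ± 1.86), Nlgn1 (43.5 ± 2.23), Nrxn3 (41.8 ± 0.908) and Lrrtm2 (30.9 ± 1.64). Lrrtm4 (10.5 ± 1.25) and Lrrtm3 (5.74 ± 0.230) were the least abundant, and Lrrtm3 lay above 23.3% of the genes tested. Neighbours in this order did not overlap between their EGFP libraries, except for Nlgn1 and Nrxn3, whose ranges overlapped. The order of the means was the same in CCNY-WT and in CCNY-shRNA.

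**Figure D1:**
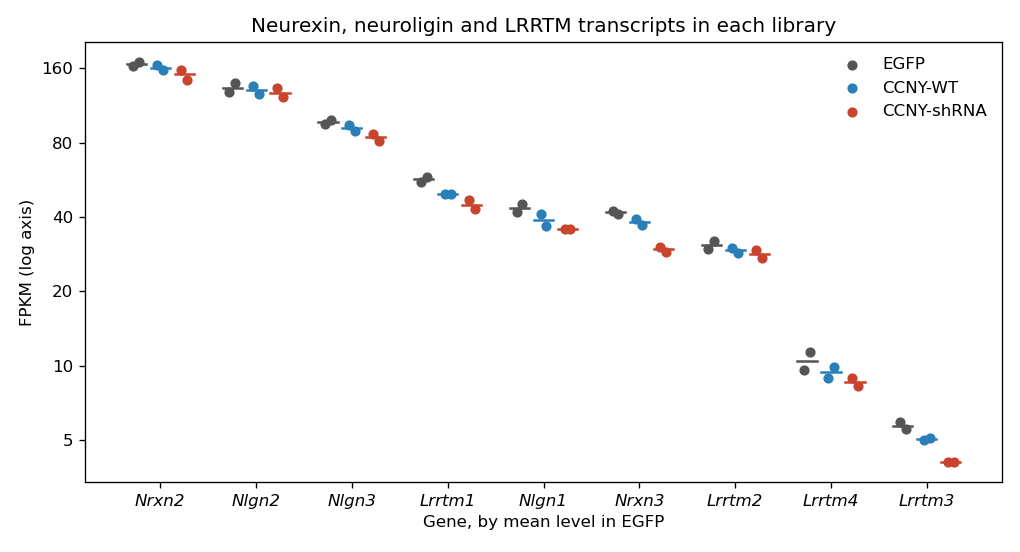
FPKM on a log axis for each of the 9 genes, ordered by mean level in EGFP; points are the 2 libraries of a condition and lines their means. Nrxn3 sat at 42.4 and 41.2 with EGFP and at 30.4 and 28.9 with CCNY-shRNA, whereas the Nlgn2 libraries of the 3 conditions overlapped.

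The first question was whether knockdown of CCNY changed these transcripts. Nrxn3 fell, while Nrxn2 and Nlgn2, the most abundant neurexin and neuroligin here, differed from EGFP by less than the test could call. Differences were tested with limma on log2 FPKM, with values floored to 1, over the 10188 genes that reached an FPKM of 1 in 2 libraries or more, and p-values were adjusted over all of them by the Benjamini-Hochberg method. All 9 genes were tested. The call was made for 1 of the 9, against 0.579% of all genes tested that were called lower. That background is 59 genes and was 1 without either EGFP replicate. The mean of each of the 9 was below that of EGFP, at a median log2 change of -0.28 against 0.00 over all genes tested, and of -0.19 without EGFP replicate 2. The groups did not overlap for 8 of the 9, each lower in all 4 pairings of libraries, which was also true of 24.5% of all genes tested. In these bulk samples, fewer cells of a type and less RNA per cell cannot be told apart.

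Nrxn3 encodes neurexin 3, 1 of the presynaptic neurexins. Its FPKM was 42.4 and 41.2 with EGFP, 39.3 and 37.0 with CCNY-WT and 30.4 and 28.9 with CCNY-shRNA. Both knockdown libraries lay below the other 4. The fall from EGFP was 29.1% (log2 change -0.50, standard error 0.0679, 95% interval -0.65 to -0.34, limma adjusted p = 0.0321). The change lay between -0.53 and -0.46 under every alternative tried. Several of these, such as another filter or no trend in the fit, cannot move it. The call was not kept under all of them. It was lost when a library was left out, with an adjusted p of 0.165 without EGFP replicate 1, 0.232 without EGFP replicate 2, 0.0766 and 0.0748 without CCNY-WT replicates 1 and 2, and 0.0703 without CCNY-shRNA replicate 2, and it was kept without CCNY-shRNA replicate 1. It was also lost with no filter on low values (adjusted p = 0.0576), with no trend in the fit (0.143) and with only the EGFP and CCNY-shRNA libraries (0.172). The table gives 1 value for the gene, so the long and short forms of neurexin 3, made from separate promoters, were not told apart.

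Nrxn2 encodes neurexin 2 and had an FPKM of 164 and 169 with EGFP, 165 and 157 with CCNY-WT and 158 and 144 with CCNY-shRNA. The knockdown libraries were the lowest of the EGFP and CCNY-shRNA libraries, and the CCNY-WT libraries overlapped with EGFP. The log2 change in CCNY-shRNA was -0.14 (standard error 0.0637, 95% interval -0.29 to 0.01, limma adjusted p = 0.296). It was -0.07 without CCNY-shRNA replicate 2 and -0.21 without CCNY-shRNA replicate 1. The ratio of Nrxn3 to Nrxn2 within a library, which does not depend on how libraries are scaled, was 0.259 and 0.244 with EGFP, 0.237 and 0.236 with CCNY-WT and 0.192 and 0.201 with CCNY-shRNA. The 3 conditions did not overlap in this ratio. Its mean was 0.252 ± 0.0109 with EGFP and 0.196 ± 0.00622 with CCNY-shRNA, with an exact two-sided permutation p of 0.333, the smallest that 2 libraries against 2 can give. This ratio was chosen after the values were seen.

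Among the neuroligins, the postsynaptic receptors of neurexins, none passed the adjusted threshold in CCNY-shRNA. Nlgn1, found at excitatory synapses, had an FPKM of 41.9 and 45.1 with EGFP, 41.0 and 36.9 with CCNY-WT and 35.7 in each CCNY-shRNA library. Both conditions lay below EGFP without overlap. Its log2 change in CCNY-shRNA was -0.28 (standard error 0.0749, limma adjusted p = 0.117).

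Nlgn3 had an FPKM of 95.6 and 98.6 with EGFP, 94.3 and 88.8 with CCNY-WT and 86.9 and 81.3 with CCNY-shRNA, with the 3 conditions in that order and without overlap. The log2 change in CCNY-shRNA was -0.21 (standard error 0.0604, limma adjusted p = 0.137). Nlgn2, the neuroligin of inhibitory synapses, had an FPKM of 128 and 139 with EGFP, 135 and 126 with CCNY-WT and 133 and 122 with CCNY-shRNA. All 3 conditions overlapped, and the change in CCNY-shRNA was the smallest of the 9, at -0.07 on the log2 scale (95% interval -0.23 to 0.09, limma adjusted p = 0.652). Without EGFP replicate 2 or CCNY-shRNA replicate 2 it was -0.0086 and -0.0050, and without EGFP replicate 1 or CCNY-shRNA replicate 1 it was -0.13.

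Nlgn2 made up 48.2% and 49.2% of the summed neuroligin FPKM with EGFP and 52.0% and 51.0% with CCNY-shRNA. The CCNY-WT libraries lay between these, at a mean of 50.1 ± 0.0889% (SD, n = 2), where the other means were 48.7 ± 0.676% with EGFP and 51.5 ± 0.711% with CCNY-shRNA. The Nlgn1 share was 15.8% and 15.9% with EGFP, 15.1% and 14.6% with CCNY-WT and 14.0% and 15.0% with CCNY-shRNA. The Nlgn3 share was 36.0% and 34.9% with EGFP, 34.8% and 35.2% with CCNY-WT, which overlap, and 34.0% in each CCNY-shRNA library. For each of these shares the exact two-sided permutation p was 0.333 in each condition against EGFP, the smallest possible with 2 libraries a group, except for the Nlgn3 share with CCNY-WT (0.667).

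**Figure D2:**
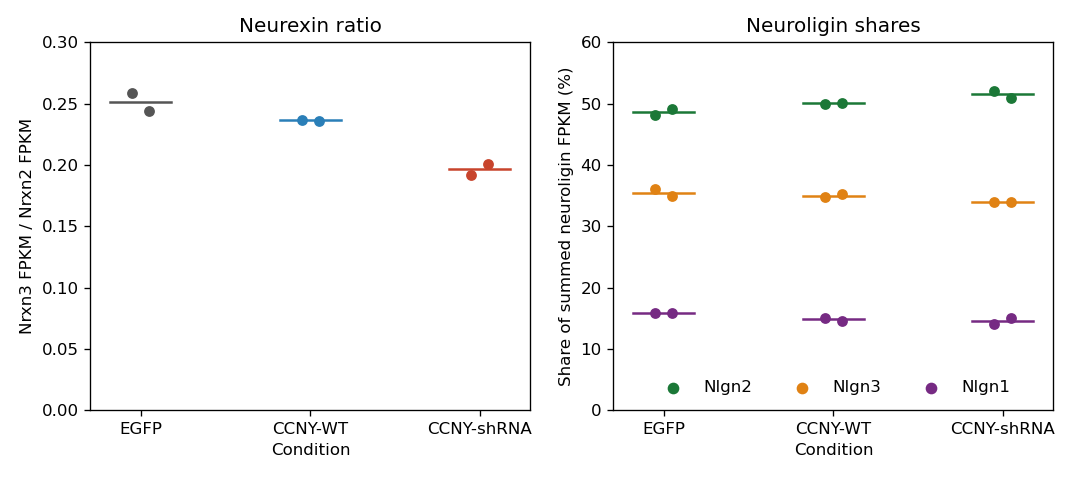
Left, the ratio of Nrxn3 to Nrxn2 FPKM within each library; right, each neuroligin as a percentage of the summed neuroligin FPKM; points are libraries and lines the means of 2. The ratio was 0.259 and 0.244 with EGFP and 0.192 and 0.201 with CCNY-shRNA, and the Nlgn2 share was lowest in the 2 EGFP libraries.

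The 4 LRRTM genes, whose products bind neurexins from the postsynaptic side, were each lower in all 4 pairings of CCNY-shRNA with EGFP, and none passed the adjusted threshold. Lrrtm1 came closest, with an FPKM of 55.7 and 58.3 with EGFP, 49.7 in each CCNY-WT library and 46.8 and 43.0 with CCNY-shRNA. The 3 conditions did not overlap. The log2 change in CCNY-shRNA was -0.35 (standard error 0.0655, 95% interval -0.50 to -0.19, limma adjusted p = 0.0634).

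Lrrtm3 had an FPKM of 5.90 and 5.57 with EGFP, 5.03 and 5.10 with CCNY-WT and 4.08 and 4.09 with CCNY-shRNA. The conditions again did not overlap, and the log2 change of -0.49 with CCNY-shRNA was close in size to that of Nrxn3, but with a standard error of 0.140 at this low level the adjusted p was 0.133. Lrrtm4, whose product also binds heparan sulfate proteoglycans, had 9.61 and 11.4 with EGFP, 8.96 and 9.94 with CCNY-WT and 8.89 and 8.28 with CCNY-shRNA, a log2 change of -0.29 (limma adjusted p = 0.30) that was -0.16 without EGFP replicate 2.

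Lrrtm2 had an FPKM of 29.7 and 32.1 with EGFP, 30.1 and 28.6 with CCNY-WT and 29.3 and 27.3 with CCNY-shRNA. The CCNY-shRNA libraries lay just under the lower EGFP library (log2 change -0.13, limma adjusted p = 0.414), and the change was -0.07 without EGFP replicate 2 and -0.08 without CCNY-shRNA replicate 2. In RefSeq's later rat assembly, GRCr8, Lrrtm2 lies inside Ctnna1 and Lrrtm3 inside Ctnna3, and whether the counting used strand is not given in the sources used here, so reads of such overlapping genes may not be told apart. Uncharacterised loci overlap Nrxn3, Nlgn1 and Lrrtm4 there. Lrrtm1 had no entry in the gene list used, so genes that overlap it were not looked up. The level of Ctnna3 was not looked at. Ctnna1, an alpha catenin, had an FPKM of 9.45 and 9.46 with EGFP and 8.39 and 8.37 with CCNY-shRNA (log2 change -0.17, limma adjusted p = 0.642).

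Counted without adjustment, 5 of the 9 genes (Nrxn3, Nlgn1, Nlgn3, Lrrtm1 and Lrrtm3) had a p under 0.05 and were lower in CCNY-shRNA, against 9.36% of all genes tested. The study set a fold criterion for knockdown, a mean log2 difference of at least 0.33. By it the 3 genes Nrxn3, Lrrtm1 and Lrrtm3 were lower, against 7.59% of all genes tested. The study also names the cuffdiff module in the selection of its genes, so its own selection may differ from this one. The fold criterion as applied here involves no test. It was met by 5 genes without EGFP replicate 1 and by 2 without EGFP replicate 2 or CCNY-shRNA replicate 2.

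**Figure D3:**
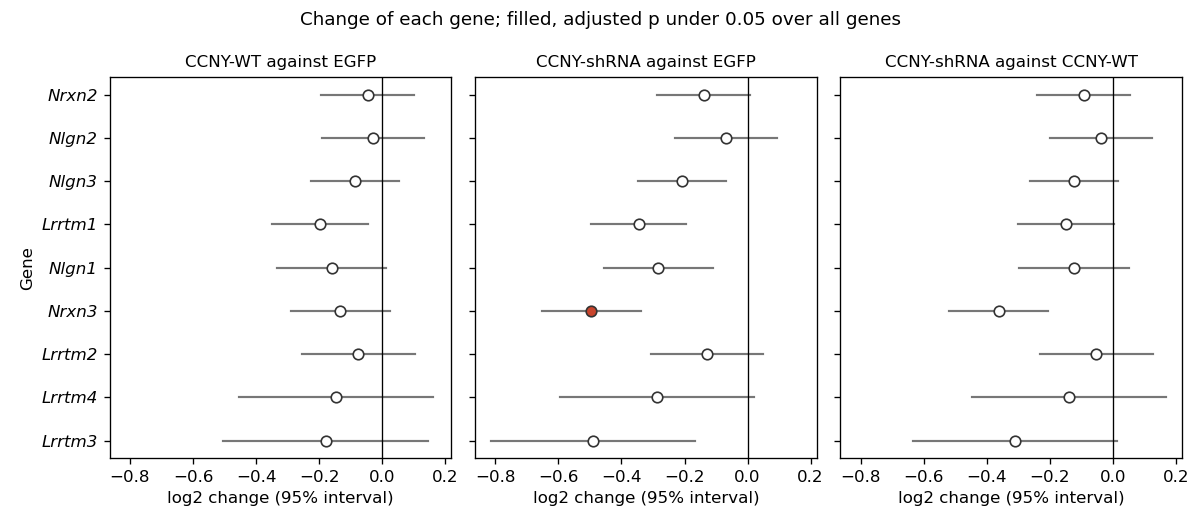
Log2 change of each gene with its 95% interval from limma in the 3 comparisons; the filled point marks an adjusted p under 0.05 over all genes tested. Nrxn3 with CCNY-shRNA against EGFP, at -0.50, is the filled point, and every point in the 3 panels lies below 0.

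Overexpression of CCNY was compared with the same EGFP libraries, so both comparisons share their control. In CCNY-WT none of the 9 genes passed the adjusted threshold in limma, where 0% of all genes tested were called lower. At an unadjusted p under 0.05 there was 1, Lrrtm1, against 3% of all genes tested, at a log2 change of -0.20 (standard error 0.0655, limma adjusted p = 0.725). The mean of each of the 9 genes was nonetheless below that of EGFP, by a median log2 change of -0.13 against 0.00 over all genes tested. Without EGFP replicate 2 the median was -0.06, and without CCNY-WT replicate 2 it was -0.08, with 8 of the 9 lower in each case. The groups did not overlap for 5 of the 9 (Nrxn3, Nlgn1, Nlgn3, Lrrtm1 and Lrrtm3), against 19.2% of all genes tested that were lower in all 4 pairings. The log2 change of Nrxn3 with CCNY-WT was -0.13 (95% interval -0.29 to 0.02, limma adjusted p = 0.761), and that of Nlgn1 was -0.16 (95% interval -0.33 to 0.01, limma adjusted p = 0.745). None of the 9 met the criterion of 0.3 that the study set for overexpression, against 3.76% of all genes tested that were lower by it. The sign of the smallest change, that of Nlgn2 at -0.03, depended on single libraries and was 0.03 without EGFP replicate 2 and 0.02 without CCNY-WT replicate 2.

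A direct comparison of CCNY-shRNA with CCNY-WT asks whether the conditions differed from each other. None of the 9 genes passed the adjusted threshold in limma, against 0.196% of all genes tested that were called lower, and 1, Nrxn3, had an unadjusted p under 0.05, against 7.12% of all genes tested that did so and were lower. The genes called lower numbered 20 in all, and 1 without either CCNY-WT replicate. The log2 difference of Nrxn3, CCNY-shRNA minus CCNY-WT, was -0.36 (standard error 0.0679, 95% interval -0.52 to -0.20, limma adjusted p = 0.112). For the other genes it lay between -0.31 for Lrrtm3 and -0.04 for Nlgn2, whose sign turned without CCNY-WT replicate 1 (0.01) or CCNY-shRNA replicate 2 (0.02). The groups did not overlap for 6 of the 9, against 21.9% of all genes tested that were lower in all 4 pairings.

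The 250 bases before and 50 after the annotated start of transcription were taken from RefSeq (GRCr8) for the 6 of the 9 genes with a window in the table of promoters used here, Nlgn1, Nlgn2, Nlgn3, Lrrtm2, Lrrtm3 and Lrrtm4. Shown are the windows of Lrrtm3, with the largest log2 change of these 6 with CCNY-shRNA, of Nlgn1, and of Nlgn2, with the smallest. Capitals mark matches on either strand to the TATA box (TATAAA), the GC box (GGGCGG), the core of the cAMP response element (TGACG) or the CCAAT box (CCAAT).
Lrrtm3, chr20:24514054-24514353, plus strand: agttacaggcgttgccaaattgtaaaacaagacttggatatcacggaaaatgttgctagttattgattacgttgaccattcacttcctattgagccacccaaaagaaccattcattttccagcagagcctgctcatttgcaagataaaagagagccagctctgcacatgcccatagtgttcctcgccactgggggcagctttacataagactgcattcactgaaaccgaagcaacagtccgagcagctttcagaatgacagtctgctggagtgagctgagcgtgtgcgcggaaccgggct
Nlgn1, chr2:110930627-110930926, minus strand: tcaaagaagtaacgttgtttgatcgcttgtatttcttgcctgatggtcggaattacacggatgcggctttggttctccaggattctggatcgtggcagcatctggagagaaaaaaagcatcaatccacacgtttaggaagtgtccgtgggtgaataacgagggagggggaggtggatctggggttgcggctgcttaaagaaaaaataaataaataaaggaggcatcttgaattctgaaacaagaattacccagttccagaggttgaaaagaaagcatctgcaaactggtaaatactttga
Nlgn2, chr10:55056529-55056828, minus strand: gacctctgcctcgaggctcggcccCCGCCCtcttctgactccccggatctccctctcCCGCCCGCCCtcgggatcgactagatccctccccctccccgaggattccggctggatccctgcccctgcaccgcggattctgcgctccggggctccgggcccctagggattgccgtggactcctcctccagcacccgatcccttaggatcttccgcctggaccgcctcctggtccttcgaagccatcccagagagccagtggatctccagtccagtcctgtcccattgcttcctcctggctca

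The Nlgn2 window held 3 matches to the GC box, 2 of which overlap, and a GC content of 67.3%. The GC content was 43.3% for Nlgn1 and 47.7% for Lrrtm3, against a median of 51.7% over 33469 windows of the same length. Neither of these windows held any of the 4 motifs, nor did that of Lrrtm4, while Nlgn3 held a CCAAT box and Lrrtm2 held 3 matches to TGACG. Of all windows, 33.1% held the GC box, 14.2% the TATA box, 21.2% TGACG and 37.5% the CCAAT box. A match in these letters is a description of the window only.

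Other genes of the same adhesion system were taken from lists by role, 77 in all, of which 74 had a row and 70 could be tested. In CCNY-shRNA, 2 of the 70 were called, both lower, beside the 0.579% of all genes tested. Of the 70, 51 had a lower mean. The median log2 change of the 70 was -0.11, against -0.28 for the 9 adhesion genes and 0.00 over all genes tested. In CCNY-WT, 0 of the 70 were called in limma and the median was -0.09.

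Clstn2, which encodes calsyntenin 2, a postsynaptic protein of the calsyntenin family, was 1 of 22 tested genes listed as neurexin partners or related ligands. It was the only gene of that list called. Of the 22, 19 had a lower mean in CCNY-shRNA, at a median log2 change of -0.14 against 0.00 over all genes tested. The FPKM of Clstn2 was 58.7 and 62.2 with EGFP, 46.9 and 46.0 with CCNY-WT and 44.6 and 40.9 with CCNY-shRNA, with both conditions below EGFP. It fell in CCNY-shRNA by 29.3%, a log2 change of -0.50 with a standard error of 0.0675 (limma adjusted p = 0.0312), and its log2 change in CCNY-WT was -0.38 (limma adjusted p = 0.326). In CCNY-shRNA the adjusted p was 0.128 and 0.249 without EGFP replicates 1 and 2, 0.0766 and 0.0774 without CCNY-WT replicates 1 and 2, and 0.0654 without CCNY-shRNA replicate 2.

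Adam10 encodes a membrane protease that cleaves the outer part of many surface proteins, neuroligins among them. Its FPKM was 52.3 and 52.2 with EGFP, 55.3 and 48.9 with CCNY-WT and 35.4 and 33.8 with CCNY-shRNA. The knockdown libraries alone were low. Against EGFP it fell by 33.8%, a log2 change of -0.60 with a standard error of 0.0742 (limma adjusted p = 0.0231). The call was also made against CCNY-WT (log2 difference -0.59, limma adjusted p = 0.0330). Against EGFP, the adjusted p was 0.130 and 0.231 without EGFP replicates 1 and 2 and 0.0623 without CCNY-shRNA replicate 2. Against CCNY-WT the call was lost without any one of the 6 libraries, at an adjusted p of 0.0563 to 0.237. The other 2 proteases tested were not called. Mmp9, a secreted protease, did not reach an FPKM of 1 in any library and so was not tested. Its values were 0.179 and 0.0548 with EGFP, 0.857 and 0.705 with CCNY-WT and 0.511 and 0.726 with CCNY-shRNA, higher than EGFP in all 4 pairings of each condition. How many other genes at such low values were higher in all 4 was not counted.

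Of the remaining lists none held a called gene. The gene with the smallest p among 14 listed as partners or inhibitors of neuroligins was Shank3, a postsynaptic scaffold. It was higher in all 4 pairings of both conditions with EGFP. Its FPKM was 46.3 in each EGFP library, 56.0 and 54.8 with CCNY-WT and 55.4 and 53.3 with CCNY-shRNA (log2 change in CCNY-shRNA 0.23, limma adjusted p = 0.0990). The share of all genes tested that were higher in all 4 pairings was not counted, and 24.5% were lower in all 4 with CCNY-shRNA. Among 9 genes listed as intracellular partners of neurexins, the smallest p was that of Apba1, an adaptor also called Mint1. Its log2 change in CCNY-shRNA was 0.20 (limma adjusted p = 0.214).

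The list of LAR receptor phosphatases and related adhesion proteins, many of which form a separate bridge across the cleft, gave 18 tested genes, with a median of -0.08 and 13 lower means. Only 1 of these is a phosphatase, Ptprf (log2 change -0.04, limma adjusted p = 0.847), and Ptprs was listed at 0 in all 6 libraries. Whether Ptprs was absent or not measured cannot be told. Slitrk3, a ligand at inhibitory synapses, had the smallest p of the 18, at a log2 change of -0.27 (limma adjusted p = 0.158). Of the 4 SynCAM genes it was Cadm1, with -0.17 (limma adjusted p = 0.169) at a mean FPKM of 234 ± 6.12 with EGFP and 207 ± 2.89 with CCNY-shRNA.

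**Figure D4:**
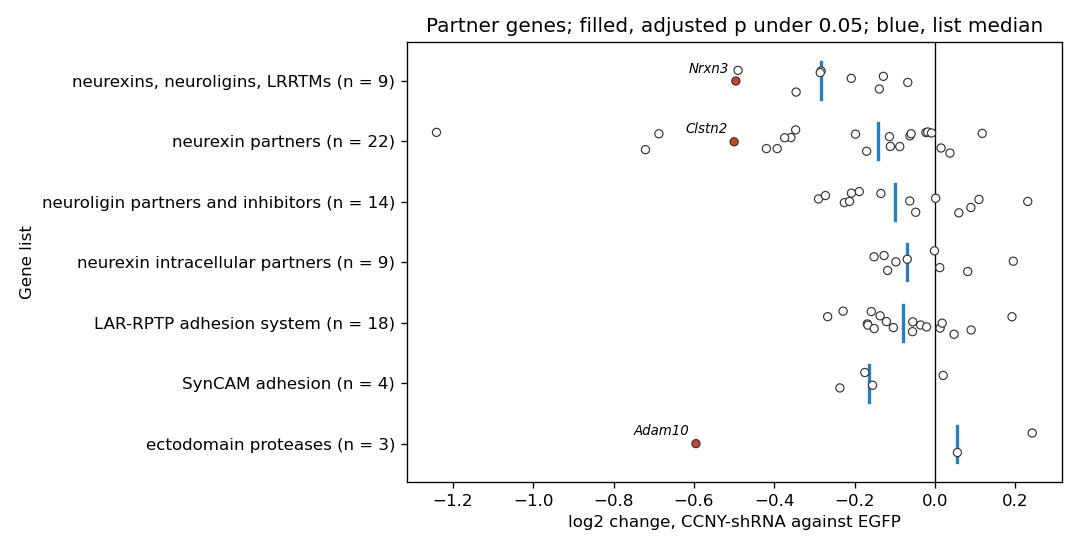
Log2 change in CCNY-shRNA against EGFP of the 9 adhesion genes and of the genes tested in each partner list; each circle is a gene, filled circles have an adjusted p under 0.05 and blue bars are list medians. Nrxn3, Clstn2 and Adam10 are filled, at -0.50, -0.50 and -0.60.

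Markers of neuron types were set beside these genes. The 5 markers of GABAergic neurons summed to between 2140 and 2260 with EGFP, 2160 and 2180 with CCNY-WT and 1850 and 2020 with CCNY-shRNA. Most of that sum was Sst, at a log2 change of -0.22 in CCNY-shRNA, while Slc32a1 (-0.13), Npy (-0.09) and Gad1 (-0.03) also had lower means. Of the 5, 1 was called in CCNY-shRNA, beside 0.579% of all genes tested that were called lower. This was Gad2, a GABA-synthesising enzyme, which fell by 0.41 on the log2 scale (limma adjusted p = 0.0226). That call was made under 9 of 15 alternatives. Markers of excitatory neurons, 5 in all, summed to between 1500 and 1560 with EGFP. The range was 1460 to 1470 with CCNY-WT and 1480 to 1490 with CCNY-shRNA, with 0 called in limma. Most of that sum was Slc17a7, a vesicular glutamate transporter, at a log2 change of 0.02 in CCNY-shRNA. There Neurod6 (-0.20), Camk2a (-0.18) and Slc17a6 (-0.16) had lower means and Neurod2 a higher mean (0.40, limma adjusted p = 0.0819). The median log2 change in CCNY-shRNA was -0.16 for the excitatory list and -0.13 for the GABAergic list. The neuronal list as a whole summed to 4690 to 4730 with EGFP, 4620 to 4640 with CCNY-WT and 4660 to 4730 with CCNY-shRNA, with 0 called in limma. Within it Map2 (-0.11), Syn1 (-0.13), Syt1 (-0.13) and Nefm (-0.12) were lower in all 4 pairings of CCNY-shRNA with EGFP. Tubb3 (0.16) and Snap25 (0.10) were higher in all 4, for which the share over all genes was not counted, and the rest overlapped. The part of cell makeup in the change of Nrxn3 was not tested.

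The genes most like Nrxn3 over the 6 libraries, by Pearson correlation of log2 FPKM among 8054 genes with a mean FPKM of at least 5, were Tmed7, a cargo receptor of the early secretory pathway (r = 0.997), Rph3a, a Rab effector on synaptic vesicles (r = 0.994), and Nrp2, a receptor for semaphorins (r = 0.993). Tmed7 had an FPKM of 62.6 in each EGFP library, 59.5 and 57.6 with CCNY-WT and 49.4 and 47.0 with CCNY-shRNA. For Nrxn2, the most abundant of the 9, they were Unc5d, a netrin receptor (r = 0.993), Thy1, a neuronal surface protein (r = 0.991) and Wnt7a (r = 0.991). These are the highest of many correlations over 6 libraries of 3 conditions and are given as a description.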

How the data were processed

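Messenger RNA of 6 libraries was sequenced from both ends (150 bp). Reads were aligned by the authors to rat build rn4 with TopHat2 2.0 (Bowtie2 2.1.0, SAMtools 0.1.19) and computed FPKM per gene symbol and library with Cufflinks 2.2.1; versions are from the submitters' processing notes. Neither the annotation nor a scaling step is given in the sources used here. The deposited FPKM were used as they stand, mapped to samples by column name.

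FPKM were floored to 1 and log2-transformed, as in the study, and fitted with limma 3.58.1 in R 4.3.3 (lmFit, contrasts.fit, eBayes with a trend) on the 6 libraries together, keeping genes that reached an FPKM of 1 in 2 libraries or more. The threshold was a Benjamini-Hochberg adjusted p of 0.05. Before use, the fit was tested on simulated data with known changes of 1 on the log2 scale and independent noise whose spread followed the level. Changes as small as those called for Nrxn3, Clstn2, Adam10 and Gad2 were not simulated. Intervals are at 95%. Ratios within a library were compared by exact permutation. Relative depth is the most common ratio to EGFP replicate 1 among weakly expressed genes, shared by 87 to 214 genes in each other library. Of 1113 weakly expressed genes then checked, 97.6% fitted whole fragments within 0.02. Figures were drawn with Python 3.11.15 and matplotlib 3.10.9.

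The members, partner lists and markers were chosen with earlier results of these data known. Named are all members, Ccny, in each partner list the genes past the threshold or else that with the smallest p in CCNY-shRNA, and for Nrxn3 and Nrxn2 the 3 genes most like them. Ctnna1, Mmp9, Ptprf, Ptprs and the neuron markers were named after their values were seen. Partner genes without a row were not analysed here. 1 marker of the GABAergic list is not reported here and was left out of its sum.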

Additional observations from a re-analysis of the deposited data

How the results depend on the processing

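The 15 alternatives were another offset on the log scale, another filter, upper quartile or quantile scaling, no trend, only the 2 groups compared, a replicate block and each library left out. In CCNY-shRNA against EGFP several of these, such as another filter, no trend or a CCNY-WT library left out, cannot move a change. Leaving out an EGFP or CCNY-shRNA library could turn the direction of Nlgn2 only, the gene whose libraries overlapped between these conditions. All 9 changes in this comparison kept their direction under each alternative, though not always their size, which was thus largely fixed in advance for direction. The number of these genes past the adjusted threshold there was 0, in place of 1, with no filter, with no trend and with only the 2 groups compared, where the adjusted p of Nrxn3 was 0.0576, 0.143 and 0.172. It ranged from 0 to 1 with a library left out. The number of partner genes past the threshold was 0, in place of 2, under the same 3 settings, and 0 to 2 with a library left out. The study's fold criterion for knockdown was met by 2 to 5 genes with a library left out. Over all genes, calls in CCNY-shRNA numbered 17 higher and 59 lower, against 1 and 15 with no filter, 0 and 1 with no trend, 0 and 1 with only the 2 groups compared, 8 and 31 with the replicate block, 34 and 71 with upper quartile scaling, and 30 and 78 with the filter on mean FPKM. With a library left out they were 0 and 1 without either EGFP replicate, 3 and 15 or 5 and 21 without CCNY-WT replicate 1 or 2, and 40 and 46 or 8 and 31 without CCNY-shRNA replicate 1 or 2. In CCNY-WT and in the direct comparison 0 of the 9 genes were called under any alternative. With a library left out, the change of Nlgn2 ranged from -0.0885 to 0.03 in CCNY-WT and from -0.101 to 0.0243 in the direct comparison, the only changes of direction. The difference in the ratio of Nrxn3 to Nrxn2 ranged from -0.0225 to -0.00714 in CCNY-WT and from -0.0629 to -0.0475 in CCNY-shRNA. Fewer libraries or groups leave fewer degrees of freedom; for the other settings the cause was not tested.

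Replicate numbers are shared between conditions in the labels, but same-numbered libraries deviated together only in part (correlations of 0.144, -0.0286 and 0.137 over 8055 genes), so they were taken to share only a number. With the replicate block, 1 of the 9 genes, Nrxn3, stayed past the threshold in CCNY-shRNA (adjusted p = 0.0384), as did 2 partner genes. The unknown absolute depth limits what can be said of Lrrtm3 and Lrrtm4, the least abundant of the 9.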
